A study of Mus musculus with 2 samples.

Results

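The cells described here are the neutrophils of mouse skin wounds at day 5, as found by a rule on measured RNA counts in single-cell libraries. A neutrophil by this rule gave at least 500 genes and at most 6% mitochondrial counts. *S100a8* and *S100a9* together took at least 1% of its counts, and *Csf3r*, *Cxcr2*, *Retnlg* and *G0s2* together gave at least 2 counts. The keratin genes *Krt5* and *Krt14* and the collagen genes *Col1a1* and *Col3a1* had to stay below 1% each as pairs, and the macrophage gene *Adgre1* (F4/80) had to be at 0. The rule found 440 neutrophils among 15514 cells that passed the filter on genes and mitochondrial counts, from 23089 barcodes in all. The libraries shared 37 barcodes, which 0 of the PBS and 2 of the DTX neutrophils carried, and no barcode was a neutrophil in both libraries.

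The data were 2 single-cell RNA libraries made from the wounded back skin of C57BL/6 mice aged 7 to 9 weeks. Both libraries were labelled Mrc1-DTR, a mouse in which the promoter of *Mrc1*, the gene of the macrophage receptor CD206, drives the diphtheria toxin receptor. One group received PBS and the other received diphtheria toxin (DTX), which kills cells that carry the receptor. Live cells (negative for the dye 7AAD) of 3 mice per group were pooled, and each RNA molecule was tagged near its 3′ end with a unique molecular identifier (UMI), so that a UMI count does not scale with gene length. The study describes the controls as wild-type mice given the toxin. Its text also gives the cell number of each library to the opposite group, while the order of immune shares it describes is that of the labels. The labels were followed throughout, every direction rests on them, and the cells are called PBS and DTX neutrophils after the labels of their libraries. The methods state technical but no biological replicates, so with 1 library per group no test between the groups was possible, and every interval below is a 95% interval for counting error alone. *Mrc1* itself was at 479.6 CPM (counts scaled to 1e6 per library or cell set) in the C1q *Adgre1* cells (at least 3 C1q UMIs and 1 *Adgre1* UMI) of the PBS library and at 615 CPM in those of the DTX library, and immune cells were 32.0% and 82.9% of passing cells. Among the neutrophils, 1 PBS cell held all 9 *Mrc1* UMIs and 23 DTX cells held 47.

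Neutrophils are short-lived granulocytes that leave the blood within hours of an injury, guided by chemokines that bind CXCR2, by formyl peptides, leukotriene B4 and complement fragments. They carry preformed granules, fill their cytosol with the calcium-binding proteins S100A8 and S100A9 (calprotectin), make reactive oxygen with the NADPH oxidase, and once activated in tissue they release IL-1β and chemokines that call further cells. Their granule proteins are made in the bone marrow in waves, so that the RNAs of primary and specific granules are mostly lost before the cells reach a tissue.

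*S100a8* (chr3:90668978-90670035, plus strand) and *S100a9* (chr3:90692632-90695721, minus strand) lie as neighbours on mouse chromosome 3 in the GRCm38 annotation. The promoter windows of *S100a9* and *Retnlg* are shown because these were the genes chosen by the rule whose windows held the letters TTGCNNAA, a core motif of the C/EBP factors that drive granulocyte genes. The windows are from RefSeq (GRCm38.p6), run from 250 bases before to 50 bases after the start site on the strand of the gene, and carry the motif, read on either strand (TTGCNNAA or TTNNGCAA), in capitals.
*S100a9*, chr3:90695672-90695971, minus strand: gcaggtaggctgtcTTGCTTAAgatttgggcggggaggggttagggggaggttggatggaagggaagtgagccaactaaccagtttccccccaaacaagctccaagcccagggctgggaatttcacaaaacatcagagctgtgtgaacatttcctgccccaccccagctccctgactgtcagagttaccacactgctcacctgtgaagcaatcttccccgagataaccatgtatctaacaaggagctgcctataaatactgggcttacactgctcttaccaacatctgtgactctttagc
*Retnlg*, chr16:48872358-48872657, plus strand: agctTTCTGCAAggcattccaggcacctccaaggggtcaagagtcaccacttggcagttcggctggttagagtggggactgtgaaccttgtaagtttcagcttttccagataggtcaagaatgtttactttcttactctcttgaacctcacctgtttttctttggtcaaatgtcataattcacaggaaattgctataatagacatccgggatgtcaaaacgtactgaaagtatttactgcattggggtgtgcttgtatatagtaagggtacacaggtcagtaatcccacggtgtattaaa
The motif stood 236 bases before the start site of *S100a9* and 246 bases before that of *Retnlg*. It was in the windows of 2 of 6 rule genes and of 2 of 9 leading neutrophil genes that had a window (*Rdh12* and *Slpi*), and 3547 of 32851 promoter windows in all (10.8%) held it. *Cebpb*, the one of 4 C/EBP genes examined with the most UMIs in these cells, was at 4616 CPM in PBS and 4939 CPM in DTX neutrophils. *Gfi1*, a transcriptional repressor made in granulocyte precursors, had no UMI in the neutrophils of either library.

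The values that chose the cells are given as a description. *S100a8* and *S100a9* together took a median of 5.05% of the UMIs of a PBS neutrophil and 10.8% of those of a DTX neutrophil, with a highest value of 24.1% and 27.8%. The 3 lowest neutrophils stood at 1.04%, 1.10% and 1.25% in PBS and at 1.01%, 1.01% and 1.04% in DTX. The 3 nearest cells that met every other condition stood at 0.907%, 0.704% and 0.686% in PBS and at 0.997%, 0.990% and 0.984% in DTX, so the limit cut through a continuous range in DTX. The limit of 2 UMIs of the other 4 genes was close for many cells, since 24 of 62 PBS neutrophils and 28 of 378 DTX neutrophils had exactly 2. By gene, *S100a9* was at 35347 CPM in PBS and 62627 CPM in DTX neutrophils, *S100a8* at 20888 CPM in PBS and 31632 CPM in DTX neutrophils, and *Retnlg*, a resistin-like secreted protein, at 2255 CPM in PBS and 3560.2 CPM in DTX neutrophils. *Cxcr2*, the receptor for CXCL1 and its relatives, was at 389.9 CPM in PBS and 597 CPM in DTX neutrophils, *G0s2*, an inhibitor of fat breakdown, at 601 CPM in PBS and 1279.5 CPM in DTX neutrophils, and *Csf3r*, the receptor for the growth factor G-CSF, at 948 CPM in PBS and 629 CPM in DTX neutrophils. Among the genes of which the rule asks a minimum, *Csf3r* alone had the lower level in DTX.

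Cells that failed a single condition were counted to show what the rule left out. The *S100a8* and *S100a9* limit alone excluded 41 PBS and 67 DTX cells, with medians of 9288 and 7522 UMIs. The 4-gene limit alone excluded 37 PBS and 54 DTX cells, which were as shallow as the neutrophils (medians of 1171 and 1639.5 UMIs) and held *Cxcl2* at 19487 and 25266 CPM. An *Adgre1* UMI alone excluded 1 PBS and 68 DTX cells, and those 68 had a median of 7680.0 UMIs, C1q UMIs in 46 of them and a doublet call by Scrublet in 45. The 500-gene minimum alone excluded 6 PBS and 19 DTX cells.

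Genes the rule did not use describe the cells further. The 12 genes with the highest fold over all other cells, taken in the library where the fold was lower, were picked for that fold, so their excess is a description and no check of the label. They were *Gm5483*, *Stfa2l1*, *Wfdc21*, *AC110211.1*, *Fpr1*, *Hdc*, *Pglyrp1*, *F630028O10Rik*, *Rdh12*, *Acod1*, *Gm26740* and *Slpi*. *Hdc*, the enzyme that makes histamine, was at 2087 CPM in PBS and 2064 CPM in DTX neutrophils, against 63.5 and 76.0 CPM in cells with at least 1 UMI each of *Ly6c2*, *Vcan* and *Csf1r*. *Slpi*, an inhibitor of neutrophil elastase, was at 5153 CPM in PBS and 7682 CPM in DTX neutrophils, against 228 and 755 CPM in the same *Ly6c2* *Vcan* cells. *Fpr1*, a receptor for bacterial formyl peptides, was at 158 CPM in PBS and 343 CPM in DTX neutrophils and at 0.882 and 10.6 CPM in *Ly6c2* *Vcan* cells, and *Acod1*, which makes the antimicrobial metabolite itaconate, was at 1033 CPM in PBS and 1114 CPM in DTX neutrophils. *Pglyrp1*, a granule protein that binds bacterial cell walls, was also found in lymphocytes, at 142 CPM in PBS and 143 CPM in DTX. *Gm5483* and *Stfa2l1* belong to the stefin A family of near-identical cysteine protease inhibitors, so reads may be split between copies and their values are uncertain. *Gm26740* and *F630028O10Rik* are annotated as antisense genes.

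**Figure D1:**
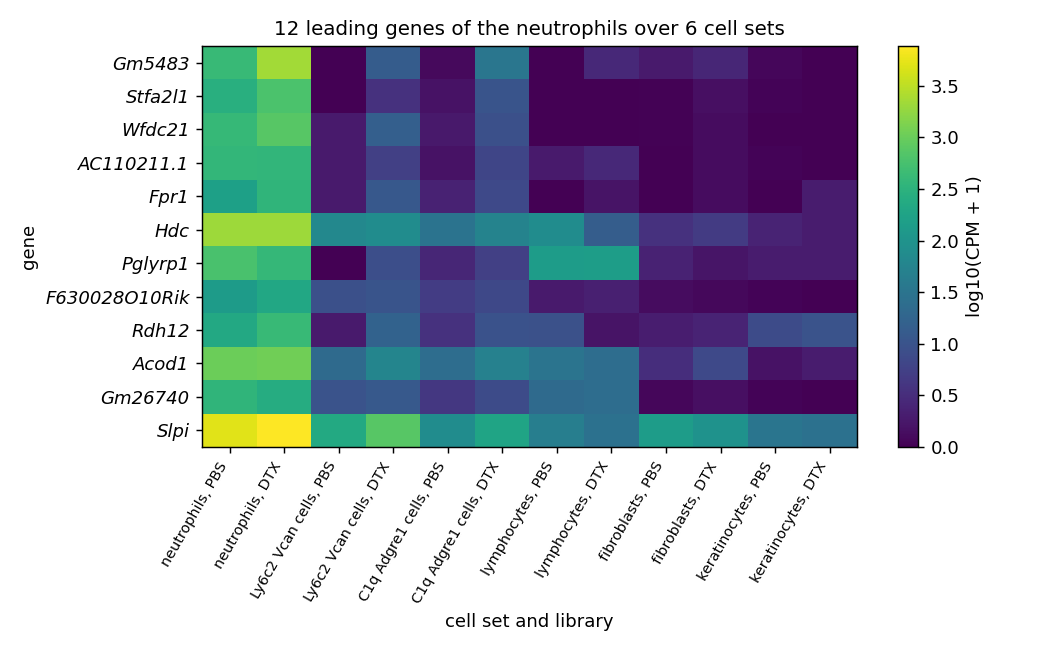
Levels of the 12 leading neutrophil genes (rows) in 6 sets of cells of each library (columns), as colour for log10(CPM + 1). The brightest cells of each row lie in the 2 neutrophil columns, except that *Pglyrp1* is also visible in lymphocytes.

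A list of 30 neutrophil genes that the rule did not use was set beside the label. The list was chosen with earlier results of these data known, so it is no independent check. Of the 30 genes, 28 had at least 50 UMIs over both libraries. The 30 genes summed to 33650.2 CPM in PBS and 46556 CPM in DTX neutrophils. The next highest of the sets was that of *Ly6c2* *Vcan* cells, with 6941 and 12618 CPM, followed by C1q *Adgre1* cells with 4851 and 6768 CPM, and the lowest was that of fibroblasts, with 1631 and 1836 CPM. The list shares 6 genes, *Slpi* and *Hdc* among them, with the 12 picked for their fold. Its other 24 genes summed to 24977 and 34718 CPM in neutrophils and to 6648 and 11752 CPM in *Ly6c2* *Vcan* cells. *Ly6g*, the antigen of the usual neutrophil antibody, gave only 8 and 73 UMIs (84.3 and 78.8 CPM), but at most 0.347 CPM in each of the other 5 sets. The 6 primary granule genes summed to 1 and 10 UMIs. *Mpo*, *Elane*, *Ctsg* and *Ms4a3*, which encode or accompany primary granule proteins, had no UMI in the neutrophils of either library. The exact Poisson interval of a count of 0 reaches 38.9 CPM in PBS and 3.98 CPM in DTX neutrophils. *Camp* and *Ngp*, of the specific granules, gave 0 UMIs in PBS and 1 UMI each in DTX, in a list of 8 genes that summed to 1412 and 1804 CPM and was led by *Pglyrp1* and *Lcn2*. Of 8 genes of dividing cells, *Mki67* and *Birc5* were at 0 in the neutrophils of both libraries, and the list summed to 927 and 575 CPM, led by the histone gene *H2afz* with 55 of 88 and 464 of 533 UMIs. In PBS 1 cell held 42.0% of the UMIs of the list, and neutrophils with up to 4000 UMIs gave 530 and 375 CPM.

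The share of neutrophils was higher in the library labelled DTX. They were 62 of 8326 passing cells in PBS, 0.745% (exact binomial interval 0.571% to 0.954%), and 378 of 7188 in DTX, 5.26% (4.75% to 5.80%). With the minimum lowered to 200 genes they were 68 of 8454 cells, 0.804% (0.625% to 1.02%), and 397 of 7263 cells, 5.47% (4.95% to 6.01%), so the lower minimum added 6 and 19 cells. Immune cells, defined by *Ptprc*, *Tyrobp*, *Cd52*, *Laptm5* and *Coro1a*, were 32.0% of passing cells in PBS and 82.9% in DTX, so a part of this difference lies in the denominator. Among immune cells the neutrophils were 2.33% (1.79% to 2.98%) in PBS and 6.28% (5.67% to 6.92%) in DTX. The intervals of the libraries did not overlap on either scale, as the plot of shares shows. A limit of at most 2000 genes per cell, which the study's methods state, gave higher shares in both libraries on both scales. Those shares are given with the other alternatives at the end.

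**Figure D2:**
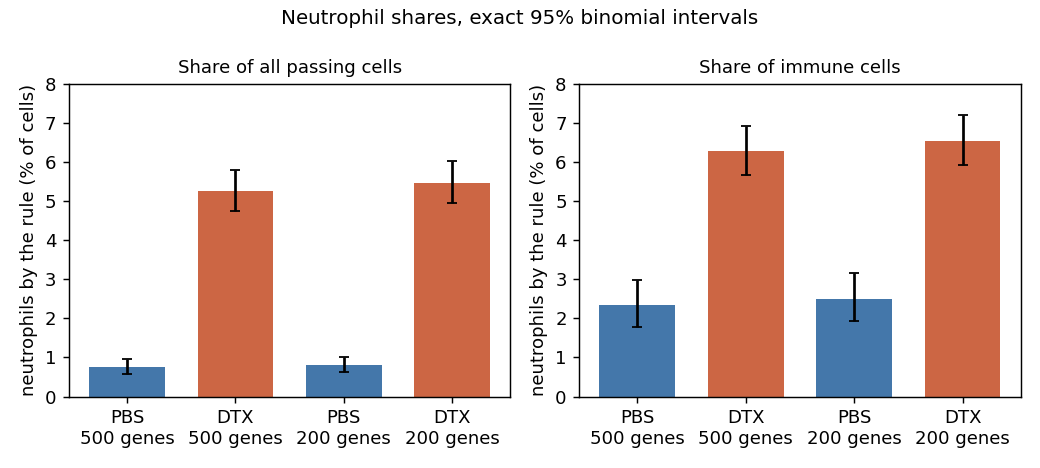
Neutrophils by the rule as a percentage of all passing cells (left) and of immune cells (right), with the minimum at 500 or 200 genes. Bars are single libraries and error bars are exact 95% binomial intervals. DTX stands above PBS in all 4 pairs.

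Set against other cells of the same library, the order was not the same for every neighbour. There were 5.18 (3.95 to 6.69) neutrophils per 100 C1q *Adgre1* cells in PBS and 28.8 (25.6 to 32.4) in DTX. Per 100 *Ly6c2* *Vcan* cells, however, there were 41.9 (30.6 to 56.7) in PBS and 22.3 (19.9 to 24.9) in DTX, where the libraries held 148 and 1696 of these cells. Since PBS neutrophils were shallower, the rule was also applied after thinning every cell to 800 UMIs, and it then found 43 of 8320 PBS cells, 0.517%, and 319 of 7180 DTX cells, 4.44%. Without the condition on the 4 genes it found 99 cells (1.19%) in PBS and 432 cells (6.01%) in DTX. Differences between mice, tissue digestion and captures cannot be told apart from the treatment with 1 library per group.

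The neutrophils held little RNA. Their median was 1264 UMIs and 605.5 genes in PBS and 1930.0 UMIs and 703.5 genes in DTX, where all passing cells had medians of 9822.5 and 7350.0 UMIs. All PBS neutrophils together gave 94888 UMIs and all DTX neutrophils 926918, so counts in PBS set the precision of each comparison. A few deep cells weighed heavily in the sums: 3 PBS neutrophils above 4000 UMIs held 22.4% of the UMIs, and 26 DTX neutrophils held 26.7%. These deep cells were poorer in neutrophil RNA in both libraries and held other lists at unlike levels. The 30 neutrophil genes summed to 19051 CPM in deep and 56576 CPM in other DTX neutrophils, while 10 macrophage genes summed to 5063 and 637 CPM. In the 3 deep PBS cells the dendritic and MHC class II genes summed to 35166 CPM, against 2174 CPM in the rest, but the keratinocyte genes summed to 751 against 2514 CPM and the fibroblast genes to 1127 against 3275 CPM. In deep DTX cells the keratinocyte and fibroblast genes were higher than in the rest. Scrublet called 15 of the 26 deep DTX cells doublets and 8 of the other 352, where the 8% highest scores of the library were taken as calls. It called none of the 62 PBS neutrophils, where its own threshold was used and called 4.59% of cells, so the libraries cannot be compared by these calls. Ratios for cells with up to 4000 UMIs are given beside results that moved without the deep cells.

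RNA of other cell types differed between the libraries and is given for each whole list. In PBS and DTX neutrophils, 12 keratinocyte genes summed to 2118 and 1077 CPM and were led by *Lgals7* and *Krt17*, with none of 12 at 0. The 10 fibroblast genes summed to 2793 and 964 CPM and were led by *Col3a1* and *Sparc*, with none at 0. In DTX 1 cell held 55.8% of the keratinocyte UMIs and 1 cell held 36.6% of the fibroblast UMIs. In cells with up to 4000 UMIs the keratinocyte list was at 2514 and 590.2 CPM and the fibroblast list at 3275 and 590.2 CPM, a wider gap for both. Both lists were lower in DTX, as they were in *Ly6c2* *Vcan* cells (log2 ratios of -2.08 and -1.84) and C1q *Adgre1* cells (-2.18 and -1.27). In lymphocytes the keratinocyte list was lower (-3.01) but the fibroblast list was higher (0.34). The 10 macrophage genes, led by *Apoe*, summed to 1054 and 1819 CPM, with *C1qa*, *C1qc*, *Ms4a7* and *Trem2* at 0 in PBS, but their order turned in cells with up to 4000 UMIs (965 and 637 CPM). The 8 dendritic and MHC class II genes, led by *Cd74*, summed to 9579.7 and 4008 CPM, with the dendritic cell genes *Flt3* and *Xcr1* at 0 in PBS and *Cd209a* and *Xcr1* at 0 in DTX, and to 2174 and 1322 CPM without the deep cells. The 8 monocyte genes, led by *Plac8*, summed to 727 and 1229.9 CPM, and to 476 and 558 CPM without the deep cells. The 9 lymphocyte genes summed to 2 and 61 UMIs, the 8 mast cell and basophil genes to 0 and 14, the 6 eosinophil genes to 3 and 9 with *Epx* at 0 in both, and the 5 red cell genes to 1 and 0. The B cell genes *Cd79a* and *Ms4a1* were at 0 in the neutrophils of both libraries. The 6 endothelial and pericyte genes were led by *Acta2* and summed to 11 and 234 UMIs, with 1 cell holding 46.2% of the latter. Of the lymphocyte UMIs in DTX, 1 cell held 77.0%. The part of this RNA in the results below was not tested.

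Levels of 2289 genes with at least 50 UMIs over both libraries were compared between DTX and PBS neutrophils, as log2 ratios of CPM with 1 CPM added. Of these, 1048 were higher and 1241 lower in DTX, with a median ratio of -0.06. In DTX, 229 genes were at least 2-fold higher, 10.0% of genes compared, and 152 were at least 2-fold lower, 6.64%. These 2 shares are the background for the counts below. DTX neutrophils gave most of the UMIs, so the minimum of 50 admits a gene more readily when it is high in DTX, and 10 of the genes had no UMI in PBS. In cells with up to 4000 UMIs the split was 131 higher and 170 lower, and with every cell weighted equally it was 214 and 233. Without the cells that Scrublet called it was 176 and 200, so under each of these settings the order of the counts turned.

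**Figure D3:**
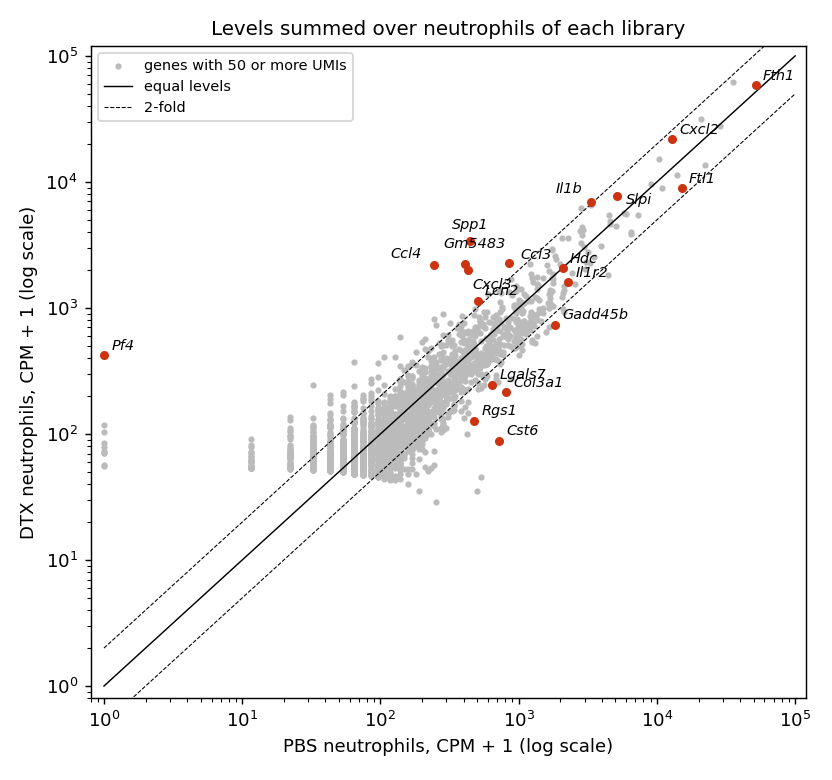
Level of each of 2289 genes in PBS neutrophils (x axis) and DTX neutrophils (y axis), as CPM + 1 on log axes, with genes named in the text in red. The solid line marks equal levels and the dashed lines a 2-fold difference. *Ccl4*, *Spp1*, *Cxcl3* and *Gm5483* lie above the upper dashed line and *Cst6* and *Rgs1* below the lower one.

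Chemokine genes were higher in DTX neutrophils. Of 8 chemokine genes compared, 7 were higher, 5 of them at least 2-fold, with a median log2 ratio of 1.76 against -0.06 for all genes. *Cxcl2*, a ligand of CXCR2 that attracts further neutrophils, was among the most abundant RNAs of these cells, at 12963 CPM in PBS and 21811 CPM in DTX neutrophils, a log2 ratio of 0.75 (0.67 to 0.83). *Ccl3*, which attracts monocytes and neutrophils, was at 854 CPM in PBS and 2274 CPM in DTX neutrophils (log2 ratio 1.41, 1.09 to 1.75), and its neighbour *Ccl4* at 242 CPM in PBS and 2180.3 CPM in DTX neutrophils (log2 ratio 3.16, 2.58 to 3.83). *Ccl4* had a UMI in 6 of 62 PBS cells and in 147 of 378 DTX cells. *Cxcl3*, another CXCR2 ligand, was at 432 CPM in PBS and 2016 CPM in DTX neutrophils (log2 ratio 2.22, 1.78 to 2.71), and *Ccl6*, a myeloid chemokine, at 875 CPM in PBS and 1686 CPM in DTX neutrophils (log2 ratio 0.95, 0.63 to 1.28). *Ccl9*, a monocyte attractant, had 6 UMIs in 3 PBS cells and 342 in 73 DTX cells (log2 ratio 2.53, 1.41 to 4.001). *Cxcl1* had a ratio of 2.10 (1.32 to 3.03), but 1 cell held 71.5% of its 547 DTX UMIs, and the ratio was 0.20 with cells weighted equally and -0.09 in cells with up to 4000 UMIs. *Cxcl16*, a membrane-bound chemokine, had a ratio of -0.30 (-1.26 to 0.81), and of -1.44 without the deep cells. The median of the list was 1.18 with equal weights and 1.14 without the deep cells.

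Among 8 cytokine genes, 7 were higher in DTX, 3 of them at least 2-fold, with a median of 0.89. *Il1b*, the precursor of the inflammatory cytokine IL-1β, was at 3351 CPM in PBS and 6975 CPM in DTX neutrophils (log2 ratio 1.06, 0.89 to 1.22) and was found in 56 of 62 and 371 of 378 cells. *Osm*, a cytokine of the IL-6 family, was at 232 CPM in PBS and 399 CPM in DTX neutrophils (log2 ratio 0.78, 0.16 to 1.48). *Tnf* was scarce, with 3 and 80 UMIs (log2 ratio 1.42, -0.15 to 3.76), as was *Il1a* with 3 and 63 (log2 ratio 1.08, -0.51 to 3.42), and both intervals include no difference. *Il1rn*, the secreted antagonist of IL-1, was at 664 CPM in PBS and 751 CPM in DTX neutrophils (log2 ratio 0.18, -0.20 to 0.57), so its level did not differ beyond counting error while that of *Il1b* did. *Vegfa*, the blood vessel growth factor, had a ratio of -0.51 (-1.36 to 0.45), and of -1.60 without the deep cells. *Il1r2*, a decoy receptor that binds IL-1 without signalling, went the other way, at 2287 CPM in PBS and 1606 CPM in DTX neutrophils (log2 ratio -0.51, -0.72 to -0.30), and its partner *Il1rap* had a ratio of 0.31 (-0.34 to 1.03). *Il1r2* also was lower in DTX without the deep cells (-0.43).

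Receptors that guide and alert neutrophils were mixed. Of 9 chemoattractant receptors, 6 had a positive and 3 a negative ratio (median 0.60). *Fpr1* had a ratio of 1.11 (0.37 to 1.97), *Fpr2*, its relative, one of 0.77 (0.05 to 1.60), *Ltb4r1*, the leukotriene B4 receptor, one of 0.85 (0.11 to 1.71), and *Ccr1*, a receptor for CCL3, one of 0.60 (0.25 to 0.97). *C5ar1*, the receptor for complement C5a, was at 727 CPM in PBS and 926 CPM in DTX neutrophils (log2 ratio 0.35, -0.01 to 0.72). *Cxcr4*, which retains neutrophils in the bone marrow and marks aged cells, was lower at 400.5 CPM in PBS and 265 CPM in DTX neutrophils (log2 ratio -0.59, -1.09 to -0.06), and *Ptafr*, for platelet-activating factor, had a ratio of -0.43 (-0.86 to 0.02). Of 8 sensors of microbes and damage, 6 had a positive and 2 a negative ratio (median 0.58). *Cd14*, a co-receptor for lipopolysaccharide, was at 2045 CPM in PBS and 3584 CPM in DTX neutrophils (log2 ratio 0.81, 0.60 to 1.03), *Trem1*, which amplifies inflammatory signals, at 854 CPM in PBS and 1343 CPM in DTX neutrophils (log2 ratio 0.65, 0.33 to 0.997), and *Nlrp3*, the inflammasome sensor, at 306 CPM in PBS and 555 CPM in DTX neutrophils (log2 ratio 0.86, 0.32 to 1.45). *Clec4e* (Mincle) and *Clec4d*, receptors for fungal and mycobacterial lipids, had ratios of -0.01 (-0.24 to 0.23) and 0.18 (-0.04 to 0.40).

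Adhesion genes differed little: 4 of 7 were higher, none by 2-fold, with a median of 0.17. *Cd44*, the hyaluronan receptor, was at 1359.5 CPM in PBS and 1547 CPM in DTX neutrophils (log2 ratio 0.19, -0.07 to 0.46). *Itgam* (CD11b), listed with the secretory granules, had 10 UMIs in 8 PBS cells and 376 in 200 DTX cells (log2 ratio 1.93, 1.05 to 3.02). Its β chain *Itgb2* had a ratio of -0.32 (-0.94 to 0.36), so the chains of this integrin had unequal ratios in the same cells.

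Granule genes that remain in tissue neutrophils were partly higher. All 5 gelatinase and secretory granule genes compared were higher in DTX, 2 of them at least 2-fold, with a median of 0.57. *Mmp8*, neutrophil collagenase, had 7 and 177 UMIs (log2 ratio 1.36, 0.30 to 2.71), *Adam8*, a sheddase, was at 527 CPM in PBS and 782 CPM in DTX neutrophils (log2 ratio 0.57, 0.16 to 1.01), and *Mmp9*, gelatinase B, at 348 CPM in PBS and 362 CPM in DTX neutrophils (log2 ratio 0.06, -0.46 to 0.62). Of 4 specific granule genes compared, 1 was higher and 3 were lower, with a median of -0.18 that was 1.15 without the deep cells. *Chil3*, counted as lower, was at 179.2 CPM in PBS and 179.1 CPM in DTX, with 94.1% of its PBS UMIs in 1 cell. Without the deep cells *Chil3* and *Cybb* had 1 PBS UMI each, so the median of 1.15 is uncertain. *Lcn2*, which starves bacteria of iron, was higher at 506 CPM in PBS and 1139 CPM in DTX neutrophils (log2 ratio 1.17, 0.75 to 1.62) and *Pglyrp1* lower (log2 ratio -0.61, -1.02 to -0.17). *Ltf* (lactoferrin) was at 4 and 8 UMIs.

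All 6 subunits of the NADPH oxidase list were lower in DTX neutrophils, none of them by 2-fold, with a median of -0.49. *Cyba*, the p22phox membrane subunit, was at 1644 CPM in PBS and 1005 CPM in DTX neutrophils (log2 ratio -0.71, -0.96 to -0.46), and *Rac2*, the small GTPase that activates the complex, at 559 CPM in PBS and 374 CPM in DTX neutrophils (log2 ratio -0.58, -0.998 to -0.13). *Ncf4* had a ratio of -0.53 (-1.05 to 0.02) and *Ncf1* of -0.44 (-1.07 to 0.23), both of them cytosolic subunits. *Cybb*, the catalytic subunit gp91phox, gave only 9 and 68 UMIs, in 3 and 27 cells. Its ratio of -0.37 was 1.19 in cells with up to 4000 UMIs, where it rested on 1 PBS and 22 DTX UMIs. *Ncf1* also turned, to 0.11, so that 4 of the 6 were lower without the deep cells.

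Iron and redox genes were split. *Fth1*, the heavy chain of the iron store ferritin, was the RNA with the most UMIs in PBS neutrophils, at 51703 CPM in PBS and 58689 CPM in DTX neutrophils (log2 ratio 0.18, 0.14 to 0.23), whereas *Ftl1*, the light chain, was at 15144 CPM in PBS and 8911 CPM in DTX neutrophils (log2 ratio -0.76, -0.85 to -0.68). The ferritin chains thus moved in opposite directions. *Hmox1*, which degrades heme, had a ratio of -0.74 (-1.02 to -0.46), *Srxn1*, which repairs peroxiredoxins, one of -1.57 (-2.12 to -1.02), and *Slc7a11*, the cystine transporter, one of -0.33 (-0.49 to -0.17). *Prdx5*, a peroxiredoxin, was higher (log2 ratio 0.44, 0.21 to 0.69), and *Sod2* (log2 ratio 0.04, -0.33 to 0.43) and *Acod1* (log2 ratio 0.11, -0.19 to 0.42) did not differ beyond counting error. *Srxn1* had a ratio of -0.05 in *Ly6c2* *Vcan* cells.

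Of 18 glycolysis and hypoxia genes, 16 were compared, 13 of them higher and 3 lower in DTX, with a median of 0.32. *Slc2a1*, the glucose transporter GLUT1, had 5 and 153 UMIs (log2 ratio 1.63, 0.39 to 3.29), and *Egln3*, an oxygen sensor that HIF induces, had 2 and 103 UMIs (log2 ratio 2.34, 0.51 to 5.46), of which 0 and 102 lay in cells with up to 4000 UMIs. *Hilpda*, a lipid droplet protein induced by hypoxia, was at 959 CPM in PBS and 1373 CPM in DTX neutrophils (log2 ratio 0.52, 0.21 to 0.84) and *Hif1a* at 464 CPM in PBS and 656 CPM in DTX neutrophils (log2 ratio 0.50, 0.06 to 0.98). The enzymes with many UMIs lay near 0, with *Gapdh* at 0.07 (-0.16 to 0.31), *Pkm* at 0.06 (-0.24 to 0.39) and *Ldha* at 0.28 (-0.28 to 0.89). *Ndrg1*, a stress gene, was lower (log2 ratio -1.06, -1.76 to -0.31).

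Of 15 interferon-stimulated genes, 7 had enough UMIs and all 7 were higher in DTX, 4 of them at least 2-fold, with a median of 1.06. *Slfn4*, an interferon-induced gene of myeloid cells, had 12 and 375 UMIs (log2 ratio 1.67, 0.86 to 2.64), *Oasl2* 6 and 162 (log2 ratio 1.45, 0.31 to 2.93), and *Rsad2* (viperin) 15 and 272 (log2 ratio 0.89, 0.14 to 1.75). The member with the most UMIs, *Isg15*, was at 1012 CPM in PBS and 1161 CPM in DTX neutrophils (log2 ratio 0.20, -0.10 to 0.51), and the remaining intervals (*Ifit1*, *Irf7* and *Gbp2*) included no difference. *Ifitm1*, an interferon-inducible membrane protein outside the list, was at 3319.7 CPM in PBS and 6615 CPM in DTX neutrophils (log2 ratio 0.99, 0.83 to 1.16), and *Wfdc17*, a secreted antiprotease-type protein of myeloid cells named after its values were seen, was at 2803 CPM in PBS and 6228 CPM in DTX neutrophils (log2 ratio 1.15, 0.97 to 1.33).

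The 8 genes listed for feedback of NF-κB signalling, a list not limited to inhibitors, were divided. The ratio was positive for 3 and negative for 5 (median -0.13). *Nfkbia*, the inhibitor IκBα, was at 1823 CPM in PBS and 2577 CPM in DTX neutrophils (log2 ratio 0.50, 0.28 to 0.73) and *Nfkbiz* at 422 CPM in PBS and 635 CPM in DTX neutrophils (log2 ratio 0.59, 0.13 to 1.09), whereas *Tnfaip2*, a TNF-induced gene, had a ratio of -0.79 (-1.18 to -0.38). The ubiquitin-editing enzyme *Tnfaip3* (A20) had one of -0.04 (-0.64 to 0.61). Of 8 survival genes, 5 were higher and 3 lower, 1 of them by 2-fold, with a median of 0.14. *Mcl1*, on which neutrophil survival depends, was at 1254 CPM in PBS and 1734 CPM in DTX neutrophils (log2 ratio 0.47, 0.20 to 0.75). *Bcl2l11* (BIM), which promotes death, was at 664 CPM in PBS and 492 CPM in DTX neutrophils (log2 ratio -0.43, -0.82 to -0.03), and *Gadd45b*, a stress-response gene, went from 1823 to 737 CPM (log2 ratio -1.31, -1.55 to -1.06). *Xiap*, an inhibitor of caspases, had a ratio of -0.95 (-2.08 to 0.34). Of genes linked to aged or tissue-resident neutrophils, 7 of 9 were higher, 3 of them at least 2-fold, with a median of 0.41. That median was 0.27 with equal weights and 0.21 without the deep cells. *Thbs1*, with 271 of the 458 PBS and 3510 of the 5925 DTX UMIs of this list, had a ratio of 0.41 (0.23 to 0.59). The 3 genes past 2-fold were *Cd274* (PD-L1) with 7 and 188 UMIs (log2 ratio 1.45, 0.39 to 2.79), *Plaur*, the urokinase receptor, at 316 CPM in PBS and 757 CPM in DTX neutrophils (log2 ratio 1.26, 0.73 to 1.84), and *Xbp1*, a factor of the unfolded protein response, at 84.3 CPM in PBS and 254 CPM in DTX neutrophils (log2 ratio 1.58, 0.59 to 2.82). *Siglecf*, a marker of tumour-associated neutrophils and eosinophils, had 1 and 3 UMIs.

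The remaining lists were small. Of 3 genes for lipid mediators and histamine, 1 was higher and 2 were lower, with a median of -0.02. *Alox5ap*, which presents arachidonic acid for leukotriene synthesis, was at 1075 CPM in PBS and 954 CPM in DTX neutrophils (log2 ratio -0.17, -0.47 to 0.14). Of 6 myeloid transcription factors, 4 were higher, with a median of 0.14, and *Junb*, an early-response factor, was at 896 CPM in PBS and 1264 CPM in DTX neutrophils (log2 ratio 0.50, 0.18 to 0.83). Of 7 genes linked to suppression and repair, 5 were higher, with a median of 0.75 that was -0.44 without the deep cells. *Lgals3*, galectin-3, was at 959 CPM in PBS and 1032 CPM in DTX neutrophils (log2 ratio 0.11, -0.20 to 0.43, and -0.44 without the deep cells), *Anxa1*, a brake on neutrophil entry, at 232 CPM in PBS and 197 CPM in DTX neutrophils (log2 ratio -0.23, -0.87 to 0.48), and *Il4ra*, the IL-4 receptor, at 179 CPM in PBS and 133 CPM in DTX neutrophils (log2 ratio -0.43, -1.17 to 0.39). Of the 28 further neutrophil genes compared, 18 were higher and 10 lower, 7 of them at least 2-fold higher, with a median of 0.29.

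**Figure D4:**
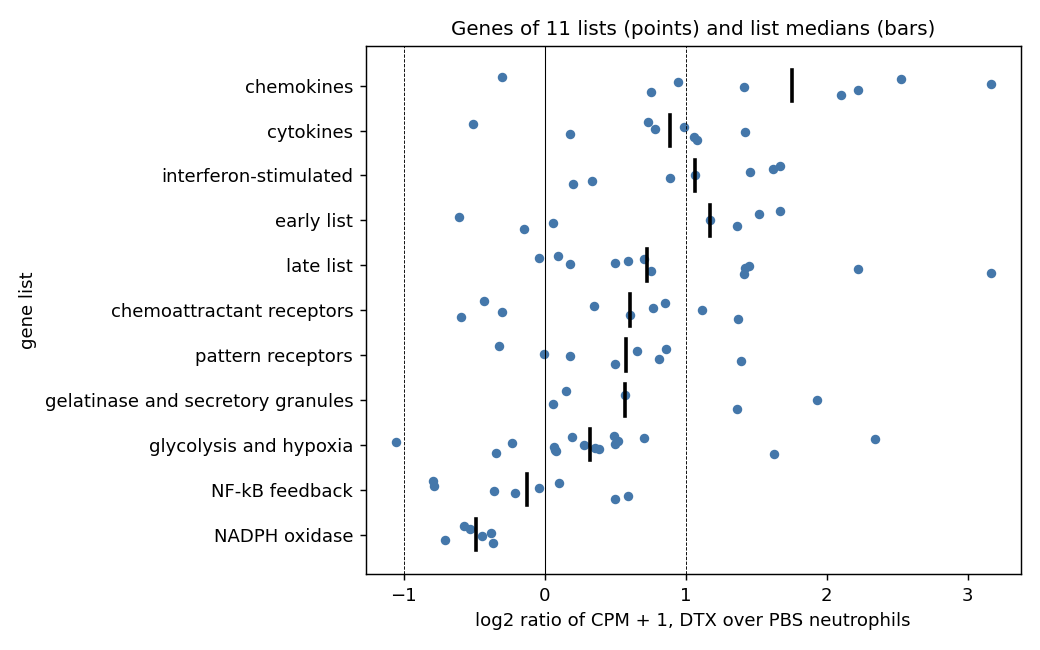
Log2 ratio of DTX to PBS neutrophils (x axis) for each gene (points) of 11 lists, with the list median (bar), a line at 0 and dashed lines at 2-fold. The medians run from -0.49 for the NADPH oxidase to 1.76 for chemokines.

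Among genes with at least 100 UMIs, the 12 highest ratios included several genes of other cells. *Pf4*, known from platelets and also made by macrophages, had 0 UMIs in PBS and 388 in DTX, at least 13.2-fold higher against a limit of 3 counts over the group, but lay in 41 cells, of which 1 held 49.5% of the UMIs, and 45 of the UMIs were in cells with up to 4000 UMIs. The platelet genes *Gp9* and *Gp1bb* were at 0 in the neutrophils of both libraries, the 6 platelet genes summed to 1 and 462 UMIs with *Pf4* as the most abundant, and *Pf4* stood at 1077 and 1933 CPM in C1q *Adgre1* cells. *Spp1* (osteopontin), a secreted matrix and cytokine protein, was spread over more cells and went from 443 to 3372 CPM (log2 ratio 2.93, 2.49 to 3.41), with UMIs in 9 of 62 and 197 of 378 cells and a ratio of 2.85 without the deep cells. In *Ly6c2* *Vcan* cells *Spp1* was at 459 and 894 CPM, below the level of DTX neutrophils. *Gm5483* was at 411 CPM in PBS and 2226 CPM in DTX neutrophils (log2 ratio 2.43, 1.98 to 2.93), in 15 and 194 cells. *Gk*, glycerol kinase, had 2 and 126 UMIs (log2 ratio 2.63, 0.81 to 5.75), *Cmtm6*, which stabilises PD-L1, 2 and 119 (log2 ratio 2.55, 0.72 to 5.67), and *Rhoh*, a GTPase of blood cells, 4 and 189 (log2 ratio 2.25, 0.89 to 4.16). Outside the deep cells *Gk* had 1 and 103 UMIs and *Cmtm6* 0 and 101. Without the condition on *Adgre1* the ratio of *Gk* was 0.96.

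The 12 lowest ratios included genes of skin cells. *Cst6*, a cysteine protease inhibitor of the epidermis, went from 717 to 87.4 CPM (log2 ratio -3.02, -3.52 to -2.55), and in *Ly6c2* *Vcan* cells from 816 to 152 CPM. The collagen genes *Col1a2* (log2 ratio -2.09, -2.65 to -1.53) and *Col3a1* (log2 ratio -1.91, -2.30 to -1.52), of which the rule caps *Col3a1*, and the epithelial galectin *Lgals7* (log2 ratio -1.38, -1.80 to -0.95) had ratios of -2.72, -2.76 and -1.61 in *Ly6c2* *Vcan* cells. Without the deep neutrophils the ratios of *Col3a1* and *Lgals7* were -3.003 and -2.40. These 4 genes were thus lower in DTX in both cell sets, as the whole keratinocyte and fibroblast lists were, and the part of free RNA from skin cells was not tested. *Rgs1*, a brake on chemokine receptor signalling, went from 474 to 126 CPM (log2 ratio -1.90, -2.42 to -1.38, and -0.95 without the condition on *Adgre1*), *Vps37b*, a sorting protein, from 706 to 258 CPM (log2 ratio -1.45, -1.85 to -1.04), and *Nr4a3*, an early-response nuclear receptor, from 295 to 111 CPM (log2 ratio -1.40, -2.02 to -0.75). *Fabp5*, a fatty acid binding protein, had 51.2% of its PBS UMIs in 1 cell (log2 ratio -1.71, -2.08 to -1.34). Its ratio was -1.26 without the deep cells and -0.59 without the condition on *Adgre1*. *Gsn*, an actin-severing protein, *Gngt2*, a G protein subunit, and *Atpif1*, an inhibitor of the ATP synthase, had ratios of -1.57 (-2.09 to -1.04), -1.41 (-2.06 to -0.73) and -1.41 (-2.04 to -0.74), and that of *Gngt2* was -0.86 without the condition on *Adgre1*.

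Ribosomal protein genes, which encode the protein synthesis machinery, were lower together. Of 77 ribosomal protein genes, 76 were lower in DTX neutrophils, 7 of them at least 2-fold, and their sum went from 72254 to 45684 CPM. Their median log2 ratio was -0.64 in neutrophils, and -0.91 without the deep cells. For the same genes it was -0.42 in *Ly6c2* *Vcan* cells, -0.27 in C1q *Adgre1* cells and -0.10 in fibroblasts. These genes were picked after their values were seen.

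Single neutrophils varied widely within each library. *Cxcl2* took a median of 0.848% of the UMIs of a PBS cell, with quartiles at 0.325% and 2.15%, and 1.94% (0.931% and 3.07%) of a DTX cell, up to 14.6%. *Il1b* took 0.227% and 0.518% at the median, and *Il1r2* 0.241% and 0.140%. The ranges of the libraries overlapped for each of these genes. *Retnlg*, by contrast, was concentrated in some cells, with a median of 0.0956% in DTX but up to 8.27% in a single cell, and no UMI in 31 of 62 PBS cells.

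**Figure D5:**
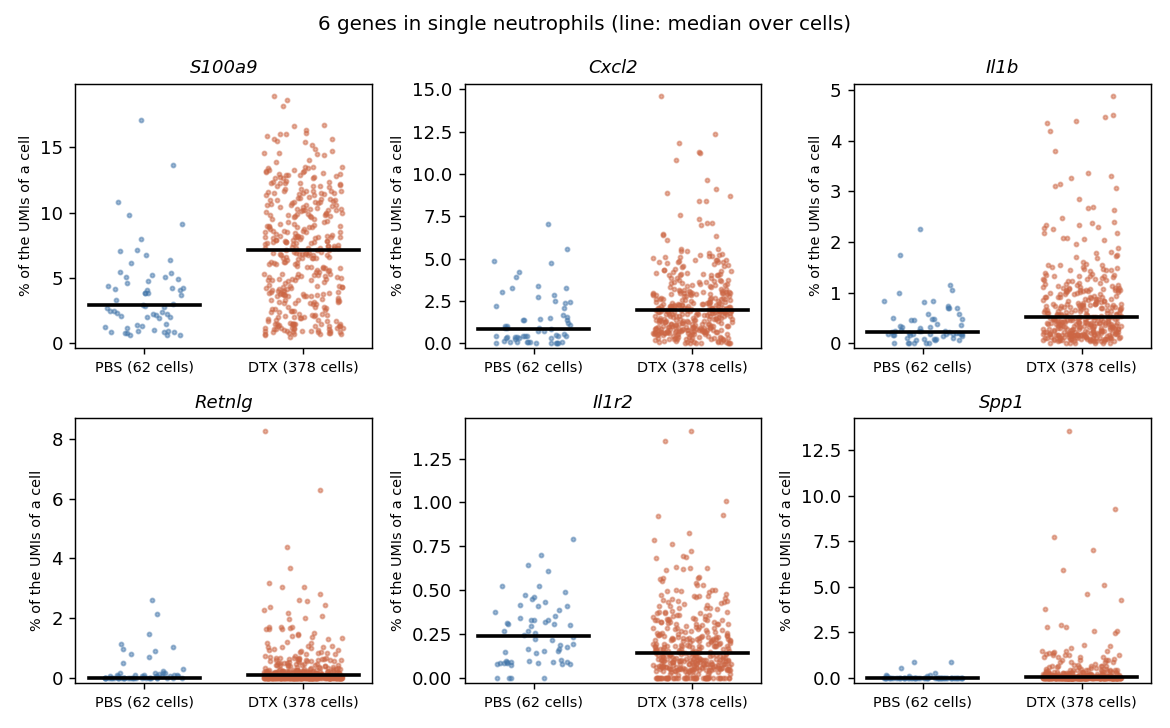
Share of the UMIs of a cell (y axis, percent) that 6 genes took in each of 62 PBS and 378 DTX neutrophils. Points are cells and lines are medians over cells, which are not replicates. The clouds overlap for all 6 genes, with the median of *S100a9*, *Cxcl2* and *Il1b* higher and that of *Il1r2* lower in DTX.

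After thinning every neutrophil to 500 UMIs, which left out no cell, *Ccl3* was detected in 21.0% of PBS and 42.9% of DTX neutrophils, and *Ccl4* in 4.84% and 27.2%. In lymphocytes thinned alike the shares were 2.83% and 0.606% for *Ccl3* and 2.02% and 2.42% for *Ccl4*. In *Ly6c2* *Vcan* cells, by contrast, both were higher in DTX, at 0% and 6.19% for *Ccl3* and 2.03% and 6.07% for *Ccl4*. *Spp1* was detected in 8.06% and 34.1% of neutrophils, against 1.06% and 3.37% of fibroblasts and 11.5% and 21.9% of *Ly6c2* *Vcan* cells, so that the PBS neutrophils stood below the PBS *Ly6c2* *Vcan* cells. *Il1r2* was detected in 61.3% and 58.7% of neutrophils, and *Cst6* in 32.3% and 5.03%. At equal depth the differences in *Ccl3*, *Ccl4* and *Spp1* were thus larger than the intervals of the shares, while that in *Il1r2* was within them. In cells thinned to 1000 UMIs, however, *Il1r2* was detected in 90.9% of PBS and 73.4% of DTX neutrophils, with 7 PBS and 6 DTX cells left out as too shallow. Without thinning, *Ccl3* was found in 29.0% and 68.0% and *Ccl4* in 9.68% and 38.9% of cells.

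Both ends of a list pair used for neutrophil ageing were present. The early list holds 12 genes of newly arrived blood neutrophils and the late list 12 genes of activated tissue neutrophils, chosen with earlier results of these data known. Of 7 early genes compared 5 were higher in DTX, 4 at least 2-fold, among them *Lrg1*, a glycoprotein of neutrophil granules, at 253 CPM in PBS and 728 CPM in DTX neutrophils (log2 ratio 1.52, 0.94 to 2.18), with a median of 1.17. Of 12 late genes 11 were higher, 5 at least 2-fold, with a median of 0.73, so the lists did not move in opposite directions. At 500 UMIs per cell, the late list gave a median of 5 UMIs per PBS and 14 per DTX neutrophil, and the early list 1 and 2. *Cxcl2* alone gave 1230 of 1726 late UMIs in PBS and 20217 of 30856 in DTX, so the late score is largely that gene. In PBS, the 20 neutrophils with the most early UMIs had a mean of 7 late UMIs and the 20 with the fewest had 13.1. In DTX, the 126 with the most had 17.2 and the 126 with the fewest also had 17.2. The DTX cells with the most early UMIs held more *Retnlg* (means of 2.98 and 1.17 UMIs) and less *Spp1* (1.59 and 2.91 UMIs) than those with the fewest. In PBS the cells with the most also held more *Retnlg* (1.45 and 1.05 UMIs), but *Spp1* was not lower in them (0.3 and 0.2 UMIs). These groups are ranges cut from a score, and they are not cell types.

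Ligands of CXCR2 were measured in all cells to place the neutrophils among their sources. Neutrophils had the highest *Cxcl2* level of the 6 sets in both libraries, above *Ly6c2* *Vcan* cells at 2907 and 5984 CPM and fibroblasts at 2568 and 3043 CPM. They were also highest in *Cxcl3*. *Cxcl1* and *Cxcl5* were instead highest in fibroblasts, with *Cxcl1* at 4258 and 6139.9 CPM and *Cxcl5* at 942 and 1753 CPM. *Csf3*, the ligand of CSF3R, was at 135 and 217 CPM in fibroblasts and had 0 and 35 UMIs in neutrophils. *Il17a*, which induces these ligands in stromal cells, was at 36.9 and 309.6 CPM in lymphocytes and at 0 in neutrophils.

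Some differences had the same direction in *Ly6c2* *Vcan* cells and others did not. *Cxcl2*, *Cxcl3*, *Ccl3* and *Slpi* were higher in DTX in both, with ratios of 1.04, 3.05, 2.90 and 1.73 in *Ly6c2* *Vcan* cells. *Asprv1*, an aspartic protease of the epidermis that neutrophils also express, was at 411 CPM in PBS and 639 CPM in DTX neutrophils (log2 ratio 0.63, 0.17 to 1.14), whereas it was at 67.9 and 11.3 CPM in *Ly6c2* *Vcan* cells. *Cyba* had a ratio of 0.10 there, against -0.71 in neutrophils. None of these differences between cell types was tested.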

How the data were processed

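Gene counts of 2 single-cell libraries (PBS and DTX, 10x 3′ v3) were analysed. The deposited values were whole-number UMI counts per gene and barcode, which the authors made with Cell Ranger 6.1.1 on mm10. The filtered matrices held 12058 barcodes and 105511870 UMIs for PBS and 11031 barcodes and 81858751 UMIs for DTX. Barcodes below 500 genes or above 6% mitochondrial UMIs were dropped, and neutrophils were taken by the rule given above. UMIs were summed over the neutrophils of a library and given as CPM, with log2 ratios of CPM + 1 for genes with at least 50 UMIs. Intervals are 95% exact Poisson intervals for levels, Clopper-Pearson intervals for shares and conditional binomial intervals for ratios. With 1 library per group there was no test. Immune cells had at least 0.2% of UMIs in 5 leukocyte genes. No doublet caller was used for the main result, and 23 DTX neutrophils that Scrublet (scanpy 1.11.5) called doublets remain in it, with their removal as an alternative.

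Genes named were those of the rule, the 12 with the highest fold over all other cells (at least 200 UMIs), the 12 highest and 12 lowest ratios (at least 100 UMIs), and list members with the most UMIs or largest ratios, and some genes that this rule covers are not reported here. Members and lists were chosen with earlier results of these data known. Alternatives changed the cell filters, the rule limits, the CPM added, the scaling, the UMI minimum, the weights of cells and the thinning. The steps were tested on simulated data. Python 3.11.15, numpy 2.4.6, scipy 1.17.1, pandas 2.3.3 and matplotlib 3.10.9 were used.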

Additional observations from a re-analysis of the deposited data

Results flagged for a closer look

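*Cxcl1*, a CXCR2 ligand, had a log2 ratio of DTX to PBS of 2.10 in neutrophils and of -1.35 in *Ly6c2* *Vcan* cells. The opposite directions drew attention, and the difference was not tested. In neutrophils 1 cell held 71.5% of the DTX UMIs. The neutrophil ratio was -0.0865 in cells with at most 4000 UMIs, so there the directions were no longer opposite.

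Cells outside the neutrophil rule also carried its RNA. In DTX, 25 cells over the mitochondrial limit met every other condition, against 2 in PBS. A further 68 DTX cells had an *Adgre1* UMI and met every other condition, against 1 in PBS.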

How the results depend on the processing

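No paired analysis was possible because each group had 1 library and no replicate numbers. Of 17 alternatives, 15 were planned. Equal weights, the limit of 4000 UMIs and 2 further settings for shares were chosen after seeing the data. The immune definition was varied for shares of immune cells only, and the UMI minima were not varied for ratios of single genes. DTX had the higher share of neutrophils of passing and of immune cells under each alternative for these shares. Per 100 *Ly6c2* *Vcan* cells the order was the reverse. With at most 2000 genes per cell, the upper limit in the study's methods, the shares of passing cells were 2.38% in PBS and 13.6% in DTX. Those of immune cells were 3.55% and 14.2%. With up to 10% mitochondrial UMIs the DTX shares were 4.34% and 5.46%, without the *Adgre1* condition 6.20% and 7.42%, and with C1q UMIs barred 4.59% and 5.47%. A stricter immune definition (0.5% of UMIs) gave 3.74% of immune cells in PBS and 7.72% in DTX. After thinning to 800 UMIs the shares in PBS and DTX were 0.517% and 4.44% of passing and 1.62% and 5.32% of immune cells. Without the 4 genes they were 1.19% and 6.01% of passing and 3.68% and 7.18% of immune cells. Genes at least 2-fold higher numbered 148 with at most 2000 genes per cell, 525 without the *Adgre1* condition, 44 with at least 200 UMIs, 711 with at least 20 UMIs and 131 in cells with at most 4000 UMIs. Genes at least 2-fold lower numbered 29 and 413 with at least 200 and 20 UMIs, and 233 with equal weights. Calls were 60.1% higher in the main comparison and between 43.5% (at most 4000 UMIs) and 72.3% (no *Adgre1* condition) elsewhere. The chemokine median was 1.18 with equal weights, and the early list median 0.61 with at least 200 UMIs. *Cxcl1* reversed to -0.0865 in cells with at most 4000 UMIs. Of 73 named genes, 63 kept their sign under every alternative that applied to single genes, and 10 did not. Among the latter were *AC110211.1*, *Hdc*, *Acod1*, *Cxcl1*, *Il1rn*, *Cybb*, *Ncf1*, *Mmp9* and *Sod2*. The cause of these shifts was not tested. The 94888 UMIs of PBS neutrophils limit every ratio, and single-library differences between mice cannot be told apart from treatment.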
